A study of Mus musculus with 20 samples.

Results

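The lecticans, the link proteins and the tenascins are 8 genes of the matrix that surrounds glial cells: Bcan, Ncan, Vcan, Acan, Tnr, Tnc, Hapln1 and Hapln2. They were taken by name from a table of 45705 mouse genes, and each name occurred there only 1 time. RNA was sequenced from 20 libraries of the periventricular zone of Swiss Webster pups at postnatal day 5, without any transgene or treatment, with the pups of a litter, of both sexes, pooled. Cells were sorted with antibodies to CD133, CD15/LeX, CD140a (PDGF receptor alpha) and NG2 into 5 populations, each with 4 libraries that the labels number as batches 1 to 4. A library is named by its population and batch, so that GRP3 4 is the GRP3 library of batch 4.

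NSCs (neural stem cells) were CD133+ and CD15+ and lacked NG2 and CD140a. BNAP/GRP1 (bipotential neuronal-astrocytic progenitors mixed with glial-restricted progenitors) were NG2+ CD140a- CD133- CD15+, and GRP2/MP3 (glial-restricted mixed with multipotential progenitors) were NG2+ CD140a- CD133- CD15-. GRP3, a glial-restricted progenitor, was NG2+ CD140a+ CD133- CD15-, and PFMP, a progenitor responsive to PDGF and FGF, was NG2+ CD140a+ CD133- CD15+. BNAP cannot be separated from GRP1, nor GRP2 from MP3, by these antigens.

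Lecticans are proteoglycans whose core protein binds the polysaccharide hyaluronan at one end and tenascins at the other, with chondroitin sulfate chains between. Link proteins, encoded by the Hapln genes, lock the lectican onto hyaluronan, and tenascin-R, a trimer, can crosslink several lecticans. Brevican (Bcan) and neurocan (Ncan) are restricted to the nervous system. Versican (Vcan) is made by oligodendrocyte progenitor cells (OPCs), among other cells, and aggrecan (Acan) is best known from cartilage and from the perineuronal nets around neurons. Tenascin-C (Tnc) belongs to the germinal zone and to immature astroglia, and tenascin-R (Tnr) to the oligodendrocyte lineage and some neurons.

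In the GRCm38 build with GENCODE vM21 genes, each lectican lies next to a link protein gene with no other gene between. Bcan (chr3:87987531-88000230, minus strand) is 21519 bases from Hapln2 (chr3:88021750-88027583, minus strand). Vcan (chr13:89655312-89742509, minus strand) is 43659 bases from Hapln1 (chr13:89539796-89611652, plus strand), and the ends of both genes face each other. Acan (chr7:79053483-79115099, plus strand) ends 2 bases from the end of Hapln3. Ncan (chr8:70093085-70120873, minus strand) ends 2222 bases from the end of Hapln4. The tenascin genes lie apart from these, Tnr at chr1:159523769-159931729 on the plus strand and Tnc at chr4:63959785-64047015 on the minus strand.

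The 250 bases before the RefSeq start of Bcan, Vcan, Acan and Tnr are shown because GRP3 and PFMP were the 2 highest populations by mean log2 level for these 4 genes and for none of the other 4. They are RefSeq sequences of GRCm38.p6, printed 5′ to 3′ on the strand of the gene, with capitals for matches to the CCAAT box (CCAAT), an E-box (CAGCTG), the SOX-type words ACAAAG and, as its close variant, ACAATG, and the TATA box (TATAAA). Both strands were searched, and no match overlapped another.
Bcan, chr3:88000357-88000606, minus strand: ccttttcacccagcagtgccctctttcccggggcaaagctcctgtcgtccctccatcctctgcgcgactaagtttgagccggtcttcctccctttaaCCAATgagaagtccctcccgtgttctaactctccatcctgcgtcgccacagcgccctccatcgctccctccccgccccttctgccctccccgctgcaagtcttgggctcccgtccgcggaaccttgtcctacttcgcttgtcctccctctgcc
Vcan, chr13:89742513-89742762, minus strand: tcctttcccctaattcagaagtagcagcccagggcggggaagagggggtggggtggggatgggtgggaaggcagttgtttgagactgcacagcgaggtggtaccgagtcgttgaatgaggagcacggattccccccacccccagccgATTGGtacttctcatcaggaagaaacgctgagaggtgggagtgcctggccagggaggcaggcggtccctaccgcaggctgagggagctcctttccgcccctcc
Acan, chr7:79052976-79053225, plus strand: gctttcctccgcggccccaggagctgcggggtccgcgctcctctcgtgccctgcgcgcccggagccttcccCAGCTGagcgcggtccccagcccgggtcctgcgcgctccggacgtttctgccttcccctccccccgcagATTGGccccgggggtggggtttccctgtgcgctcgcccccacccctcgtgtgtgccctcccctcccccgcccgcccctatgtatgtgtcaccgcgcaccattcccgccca
Tnr, chr1:159523519-159523768, plus strand: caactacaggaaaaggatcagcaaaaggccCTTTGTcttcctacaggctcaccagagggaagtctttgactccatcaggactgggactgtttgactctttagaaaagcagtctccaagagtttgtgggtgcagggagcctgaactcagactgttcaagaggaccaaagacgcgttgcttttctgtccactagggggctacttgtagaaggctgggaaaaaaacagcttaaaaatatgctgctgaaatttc
The 3 lecticans held CCAAT, which 33.8% of the 32851 promoters of that table held in the same window. CAGCTG was in Acan (13.0% of all promoters), and ACAAAG, of a kind that SOX factors bind, was in Tnr (16.5%). ACAATG (10.7% of all promoters) and TATAAA (12.4%) were in none of these 4 windows. G and C made up 62.0% of the bases for Bcan, 62.4% for Vcan, 74.4% for Acan and 46.8% for Tnr, with a median of 52.4% over all promoters.

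Levels are RPKM, reads scaled by the authors to gene length and library size. The lengths are not given and amplification from polyA can favour 3′ ends, so levels of different genes compare only roughly. The read totals are not given, but ratios of low values gave an estimate of the depth of a library relative to BNAP/GRP1 1. Its minimum was 0.0395 for BNAP/GRP1 4 and its maximum 1.41 for BNAP/GRP1 3. The number of genes above 0 did not follow this estimate, at 38191 in BNAP/GRP1 4 and 20597 in BNAP/GRP1 3. Libraries stood apart by batch. In batch 3, all 8 matrix genes were at or below 1.85 RPKM in every population, and the summed level of 8 OPC markers was 15.4 RPKM in GRP3 3 and 15.7 RPKM in PFMP 3, against 372 to 3644 RPKM in the other GRP3 and PFMP libraries. Pdgfra, which encodes CD140a, was 96.9 to 803 RPKM in these 6 GRP3 and PFMP libraries, 3.41 and 3.84 RPKM in those of batch 3, and at most 24.1 RPKM in any library of another population. In batch 3 the CD140a- NG2+ libraries had 2.26 and 2.19 RPKM of Pdgfra, close to those labelled GRP3 and PFMP, and whether the batch 3 libraries hold the cells of their labels was not tested. In BNAP/GRP1 4 the median of all genes in the table was 8.30 RPKM, against 0 to 2.02 RPKM in the other 19 libraries, so values near 7 RPKM in that library are ordinary for it. The 5 ependymal markers summed to between 1465 and 13655 RPKM in NSC libraries and to at most 105 RPKM in the others, so the NSC gate held ependymal transcripts besides those of stem cells. In such sorted populations, fewer cells of a type and less RNA per cell cannot be told apart.

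Brevican was higher in the CD140a+ than in the CD140a- NG2+ populations, by much less in batch 3 than in the other batches. Its level in batches 1 to 4 was 10.03, 22.8, 1.24 and 49.95 RPKM in NSC, 21.9, 45.1, 0.856 and 14.99 RPKM in BNAP/GRP1, and 6.79, 7.93, 0.135 and 37.2 RPKM in GRP2/MP3. In GRP3 it was 314, 171, 1.30 and 82.0 RPKM, and in PFMP 106, 344, 1.23 and 61.9 RPKM. In every batch both CD140a+ libraries were above both CD140a- NG2+ libraries, by 3.78, 3.59, 0.64 and 1.55 on the scale of log2(RPKM + 1), although the groups overlapped across batches. Of all genes tested, 0.449% had this order in each of the 4 batches, and 1.53% in each of batches 1, 2 and 4. The mean was 142 ± 134 RPKM in GRP3 and 128 ± 150 RPKM in PFMP, compared to 21.0 ± 21.2 RPKM in NSC, 20.7 ± 18.5 RPKM in BNAP/GRP1 and 13.0 ± 16.5 RPKM in GRP2/MP3 (SD, n = 4 each).

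Neurocan had the highest single values and the widest spread. It was 12.03, 14.2, 1.85 and 4181 RPKM in NSC, 14.02, 21.4, 0.428 and 159 RPKM in BNAP/GRP1, and 1.41, 5.23, 0.0446 and 2540.3 RPKM in GRP2/MP3. In GRP3 it was 30.1, 26.7, 0.166 and 1697 RPKM, and in PFMP 37.8, 53.5, 0.426 and 3331 RPKM. All 5 populations were highest in batch 4, and 89.5% of the sum of squares of log2(RPKM + 1) lay between batches, compared to 3.9% between populations. In batches 1 and 2 the order was PFMP, GRP3, BNAP/GRP1, NSC and GRP2/MP3. In batch 4, NSC was first and BNAP/GRP1 last, and the summed level of 6 astrocyte markers was 1424 RPKM in NSC, 1427 RPKM in GRP2/MP3 and 2852 RPKM in PFMP, compared to 154 RPKM in GRP3 and 83.9 RPKM in BNAP/GRP1. The part of these markers in the Ncan values was not tested.

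Versican followed brevican at a lower level. It was 3.45, 1.08, 0.972 and 8.20 RPKM in NSC, 4.43, 2.01, 1.17 and 12.1 RPKM in BNAP/GRP1, and 0.805, 5.13, 1.02 and 3.52 RPKM in GRP2/MP3. GRP3 had 30.4, 42.6, 1.37 and 13.5 RPKM, and PFMP had 36.3, 24.7, 0.929 and 8.97 RPKM. Every GRP3 library was above the NSC library of its batch, by 2.82, 4.39, 0.27 and 0.66 on the log2 scale. The BNAP/GRP1 libraries were also above NSC in each batch, by 0.14 to 0.53. By percentile among all genes of its own library, BNAP/GRP1 4 was below NSC 4, at 68.6 against 80.6.

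Aggrecan was near 0 in NSC, BNAP/GRP1 and GRP2/MP3 in batches 1 to 3, where the highest of 9 values was 0.129 RPKM. In GRP3 it was 3.54, 3.90, 0.00852 and 2.17 RPKM, and in PFMP 2.90, 5.46, 0 and 0.476 RPKM. The batch 4 values were 1.26 RPKM in NSC, 6.92 RPKM in BNAP/GRP1 and 0.832 RPKM in GRP2/MP3, and all 3 were at or below the median of all genes in their own library. The 2.17 RPKM of GRP3 4 was also close to the median of its library, which was 2.02 RPKM. In RPKM the CD140a+ libraries therefore exceeded the others in batches 1 and 2, but not in batch 4. In PFMP 4 the median of all genes was only 0.0079 RPKM. By percentile among all genes of the library, the batch 4 values were 65.8 in PFMP and 52.7 in GRP3. They were 45.0 in GRP2/MP3, 40.8 in BNAP/GRP1 and 40.7 in NSC.

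Tenascin-R was 0.671, 0.768, 0.00288 and 1.63 RPKM in NSC, 1.05, 0.675, 0.0375 and 8.25 RPKM in BNAP/GRP1, and 0.884, 0.435, 0 and 3.37 RPKM in GRP2/MP3. It was 13.3, 12.2, 0.00240 and 19.0 RPKM in GRP3 and 7.05, 7.97, 0.0507 and 4.67 RPKM in PFMP. GRP3 exceeded NSC by 3.10, 2.90 and 2.93 on the log2 scale in batches 1, 2 and 4, which made Tnr the member with the most even difference over these batches. The 8.25 RPKM of BNAP/GRP1 4 was below the median of all genes in that library.

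Tenascin-C and the link protein gene Hapln1 ran the other way. Tnc was 2.74, 1.93, 0.296 and 13.4 RPKM in NSC, compared to 0.620, 0.653, 0.269 and 2.04 RPKM in GRP3 and 1.97, 0.212, 0.126 and 3.17 RPKM in PFMP. In BNAP/GRP1 it was 2.25, 2.84, 0.0728 and 6.94 RPKM, and in GRP2/MP3 0.289, 2.10, 0 and 2.14 RPKM. Hapln1 was 6.27, 2.52, 1.04 and 6.63 RPKM in NSC, 0.854, 0.678, 0 and 1.97 RPKM in GRP3 and 4.47, 0.279, 0.0328 and 4.30 RPKM in PFMP. It was 1.47, 5.17, 0.0261 and 6.63 RPKM in BNAP/GRP1 and 1.31, 0.806, 0 and 2.17 RPKM in GRP2/MP3. Batch by batch, both genes were lower than in NSC in 4 of 4 libraries of GRP3 and of PFMP, and Hapln1 also in 4 of 4 of GRP2/MP3. The Tnc difference in GRP3 3 was only -0.03 on the log2 scale. By percentile among all genes of its library, Hapln1 was at 80.2 in PFMP 4 and 78.6 in NSC 4. For batch-by-batch orders against NSC, here and elsewhere in this report, the share of all genes with the same order was not read.

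Hapln2, the link protein of the nodes of Ranvier in mature white matter, was at or below 0.248 RPKM in batches 1 to 3 of every population. In batch 4 it was 1.26 RPKM in NSC, 6.95 RPKM in BNAP/GRP1, 0.646 RPKM in GRP2/MP3, 1.25 RPKM in GRP3 and 0 in PFMP, in each case below the median of all genes of the library or at 0. It reached 1 RPKM in only 3 libraries and so fell out of the main fit. In the fit without a filter it was not called in any of the 7 comparisons (adjusted p = 0.794 to 1, limma). Hapln2 lies next to Bcan, but the level of Bcan in GRP3 1 was 314 RPKM while that of Hapln2 was 0.0410 RPKM.

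**Figure D1:**
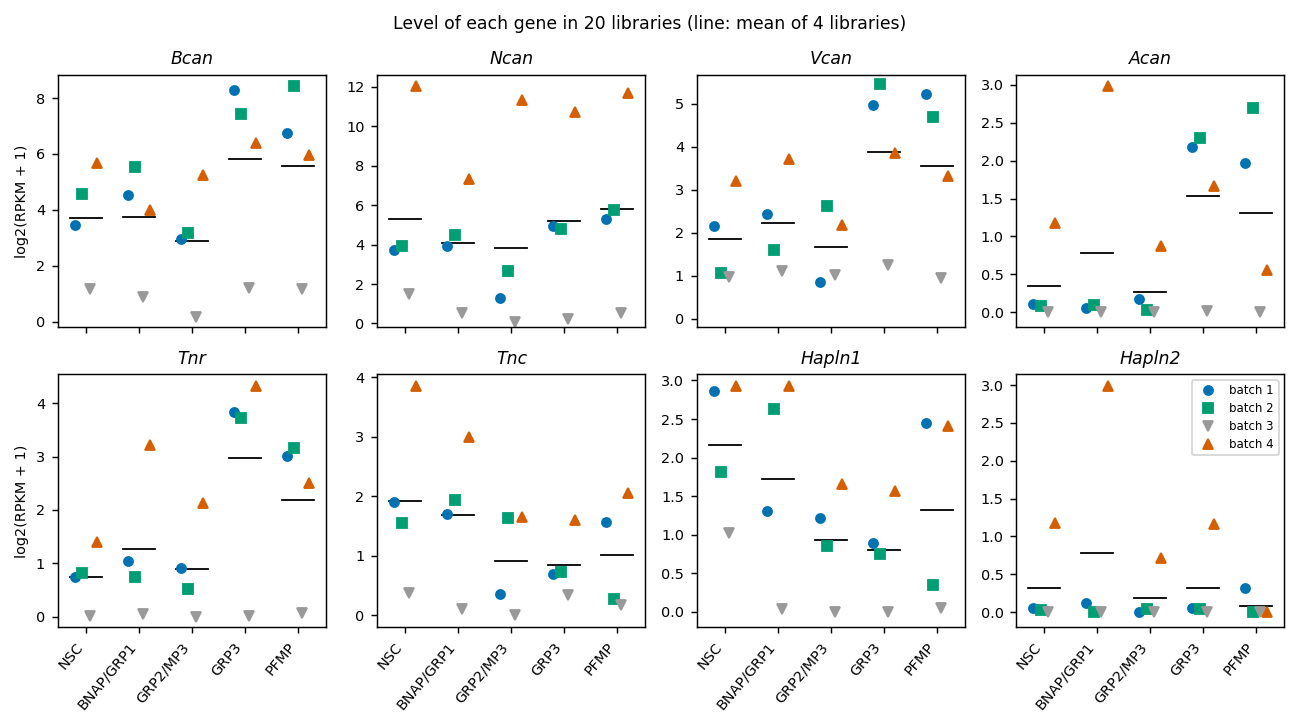
Level of the 8 matrix genes as log2(RPKM + 1) on the y axis in the 5 sorted populations on the x axis; each symbol is 1 library, coloured by batch, and the line is the mean of 4 libraries. Bcan, Vcan, Acan and Tnr are highest in GRP3 and PFMP in batches 1 and 2, batch 3 is near the bottom in every panel, and Ncan is highest in batch 4 in all populations.

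The first question of the design was how each progenitor differs from NSCs. Over the 20 libraries with no batch term, 0 of the 7 matrix genes tested passed an adjusted p of 0.05 (limma's moderated test, Benjamini-Hochberg over 27614 genes) in any of the 4 progenitors. At an unadjusted p under 0.05 there were 2 in GRP3 (Tnr and Vcan, both higher), beside 5.62% of all genes, and 0 in the other 3 progenitors, beside 5.79% to 5.9%. In GRP3 this 5.62% was made up of 348 higher and 1204 lower genes. Of all genes tested, 0.76% passed in the comparison of BNAP/GRP1, 1.12% in that of GRP2/MP3, 1.05% in that of GRP3 and 1.14% in that of PFMP, so that 0 of 7 is near the background. These shares pool both directions, and in GRP3 they were 3 higher and 287 lower genes. With the batch as a replicate block, 1 of 7 passed in GRP3 (higher) and 0 in the other 3. Of all genes 2.09%, 3.08%, 2.6% and 2.79% then passed, in the same order. Most of these were lower than in NSC, with 18, 48, 76 and 51 higher and 558, 803, 643 and 720 lower genes. All 4 comparisons use the same NSC libraries.

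The gene that passed with the block was Tnr in GRP3. It was higher than in NSC by 2.23 ± 0.92 on the log2 scale (SE; 4 libraries a group; adjusted p = 0.63 in limma), and with the replicate block the SE was 0.59 and the adjusted p = 0.0477. Without batch 3 the difference was 2.98 ± 0.71 (adjusted p = 0.0464 in limma), and over all alternatives the adjusted p ranged from 0.000226 to 1. GRP3 was higher in batches 1, 2 and 4, and in batch 3 it had 0.00240 RPKM against 0.00288 RPKM in NSC.

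The other members were not called in GRP3 in either of these fits. Bcan was 2.11 ± 1.58 above NSC on the log2 scale (adjusted p = 1, and 0.181 with the replicate block, limma). It was higher in 4 of 4 batches, in batch 3 by only 0.04, and the difference was 3.65 without GRP3 3 and 1.26 without NSC 3. Vcan was 2.03 ± 0.96 above NSC (adjusted p = 0.861, and 0.185 with the block), also in 4 of 4 batches, and Acan 1.20 ± 0.72 (adjusted p = 1, and 0.533 with the block). Ncan differed by -0.12 ± 2.67, with GRP3 higher in 2 batches and lower in 2. Tnc was at -1.08 ± 0.75 and Hapln1 at -1.36 ± 0.74, with adjusted p = 0.381 and 0.195 with the block (limma).

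In PFMP the log2 fold changes against NSC were 1.86 ± 1.58 for Bcan, 1.69 ± 0.96 for Vcan, 1.45 ± 0.92 for Tnr and 0.96 ± 0.72 for Acan. Those of Ncan, Hapln1 and Tnc were 0.52 ± 2.67, -0.84 ± 0.74 and -0.90 ± 0.75. Bcan had the largest fold change, and none passed in either fit. The lowest adjusted p with the block was 0.266, for Bcan (limma). In BNAP/GRP1 the log2 fold changes ran from -1.24 (Ncan) to 0.52 (Tnr), and in GRP2/MP3 from -1.47 (Ncan) to 0.15 (Tnr). The small differences of Bcan, Vcan and Acan in BNAP/GRP1 (0.02, 0.37 and 0.44) turned to -0.06, -0.02 and -0.01 under quantile normalization. GRP2/MP3 was below NSC in 4 of 4 batches for Bcan, Ncan and Hapln1, with adjusted p = 0.999, 0.579 and 0.258 with the block (limma).

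**Figure D2:**
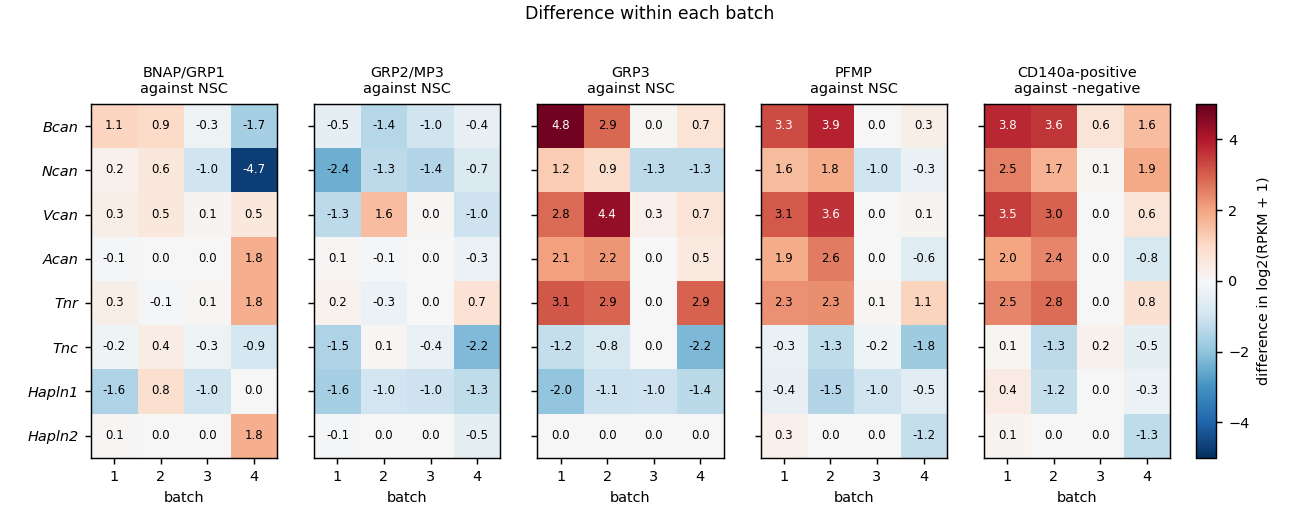
Difference in log2(RPKM + 1) within each batch (columns 1 to 4) for the 8 genes (rows) in 5 comparisons; red is higher and blue lower in the population named first, and the last panel sets the mean of GRP3 and PFMP against that of BNAP/GRP1 and GRP2/MP3. The largest rises are in batches 1 and 2 of GRP3, PFMP and the CD140a comparison, up to 4.83 for Bcan in GRP3 1, and the largest fall is that of Ncan in BNAP/GRP1 4, at -4.71.

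The second question was what the CD140a gate separates among NG2+ cells, with GRP3 and PFMP set against BNAP/GRP1 and GRP2/MP3. Without a batch term 0 of 7 passed, as did 0 of all 27614 genes (0%), and at an unadjusted p under 0.05 there were 3 higher, Bcan, Vcan and Tnr, among 446 higher and 773 lower genes in all, 4.41% of those tested (1082 and 642 under quantile normalization). With the replicate block 1 of 7 passed, Bcan, when 1.44% of all genes did (122 higher and 276 lower). Bcan was higher by 2.39 ± 1.11 on the log2 scale (SE; 8 libraries against 8; adjusted p = 0.895, limma), and with the block the SE was 0.52 and the adjusted p = 0.0385. The difference was 2.97 ± 0.61 without batch 3 (adjusted p = 0.0174, limma), and the adjusted p ranged from 0.0109 to 0.998 over all alternatives.

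Vcan was higher in CD140a+ populations by 1.77 ± 0.68 and Tnr by 1.5 ± 0.65, with adjusted p = 0.0868 and 0.0763 with the block (limma). By the mean of the gate both were higher in 4 of 4 batches, but in batch 3 only by 0.03 and 0.01. In RPKM, both CD140a+ libraries were above both CD140a- NG2+ libraries in only 2 batches for each gene. In batch 4, PFMP was below BNAP/GRP1 for Vcan (8.97 against 12.1 RPKM) and Tnr (4.67 against 8.25 RPKM). The median of all genes was 8.30 RPKM in BNAP/GRP1 4 and 0.0079 RPKM in PFMP 4. By percentile among all genes of its own library, PFMP 4 was above BNAP/GRP1 4, at 85.8 against 68.6 for Vcan and 80.8 against 49.7 for Tnr. Without batch 3, Vcan was higher by 2.35 ± 0.56 (adjusted p = 0.0424) and Tnr by 2.00 ± 0.50 (adjusted p = 0.0543, limma). Thus 2 of 7 members passed when batch 3 was left out, Bcan and Vcan, beside 1.94% of all genes (170 higher and 366 lower). For GRP3 against NSC 1 of 7 passed without batch 3, beside 1.68% of all genes (87 higher and 377 lower). For PFMP 0 of 7 passed, beside 1.75%. Ncan was higher by 1.56 ± 1.89 and Acan by 0.89 ± 0.51, and Tnc and Hapln1 were at -0.37 ± 0.53 and -0.27 ± 0.53, which turned to 0.01 and 0.03 under quantile normalization.

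In batches 1 and 2 alone, a choice made after seeing the data, every CD140a+ library was above every CD140a- NG2+ library for Bcan, Ncan, Vcan, Acan and Tnr, as it was for 9.32% of all genes tested. In that fit 5 of 7 passed in the CD140a comparison (beside 5.67% of all genes), 4 of 7 in GRP3 against NSC (5.69%) and 3 of 7 in PFMP against NSC (5.56%). Of all genes, 914 were higher and 653 lower in the first, 506 and 1065 in the second and 400 and 1135 in the third. With the block and without batch 3, 3 of 7 passed in the CD140a comparison (2.8% of all genes, 274 higher and 498 lower). In GRP3 against NSC 1 of 7 did (2.43%, 145 higher and 526 lower). With library weights these were 4 of 7 (9.06%, 1446 higher and 1055 lower) and 5 of 7 (17.7%, 2521 higher and 2364 lower). In batches 1 and 2 alone, Acan had the smallest adjusted p in the CD140a comparison, at 0.00605 with a log2 fold change of 2.19 (limma, 4 libraries against 4).

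Other cell types moved with the same gate. Outside batch 3, the summed level of 8 OPC markers was 372 to 3644 RPKM in GRP3 and PFMP, and 20.3 to 176 RPKM in BNAP/GRP1 and GRP2/MP3. All 8 markers were higher in the CD140a+ populations, and none was at 0 outside batch 3. These markers include Pdgfra, which encodes CD140a, so its difference is not independent of the sort. The 6 microglia markers summed to between 79.7 and 2899 RPKM in BNAP/GRP1 and GRP2/MP3 and to between 12.3 and 265 RPKM in GRP3 and PFMP, and 0 of 6 were higher in CD140a+ cells. The 265 RPKM was that of GRP3 3, and outside batch 3 the highest of these GRP3 and PFMP sums was 91.3 RPKM, in PFMP 4. The 6 pericyte markers reached 7078 RPKM in GRP2/MP3 4, and at most 168 RPKM in any library of another population. The part of these cell types in the differences of the matrix genes was not tested.

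**Figure D3:**
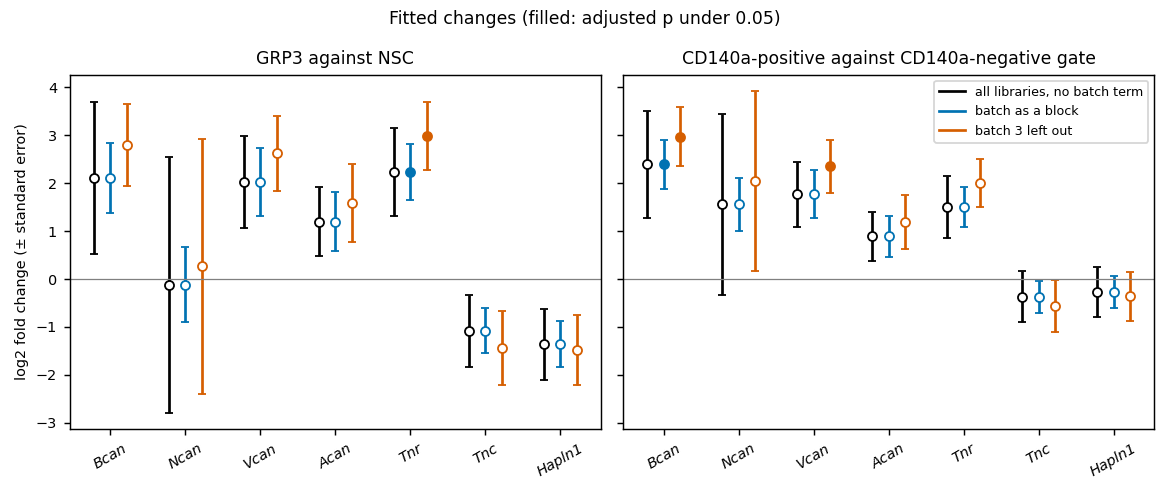
Log2 fold change (y axis, points with standard errors) of the 7 tested genes for GRP3 against NSC (left) and for CD140a+ against CD140a- NG2+ populations (right), fitted without a batch term, with the batch as a block, and without batch 3; filled points have an adjusted p under 0.05. Tnr on the left and Bcan on the right are filled in both of the latter fits, and Vcan is filled on the right without batch 3.

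Within the CD140a+ and within the CD140a- gate, no member passed. For GRP3 against PFMP the log2 fold changes ran from -0.64 to 0.79 and for BNAP/GRP1 against GRP2/MP3 from 0.24 to 0.84. None of all 27614 genes passed in either comparison without a batch term or with the block (0% in each of the 4). At an unadjusted p under 0.05, there were 0 of 7 members in both, and 79 higher and 5 lower of all genes (0.304%) in the first and 291 and 40 (1.2%) in the second (limma, no batch term). Under quantile normalization these were 75 and 73 in the first and 485 and 229 in the second. Nor did any member pass for the difference of the CD140a effect between CD15+ and CD15- populations (lowest adjusted p = 0.962, and 0.627 with the block, limma interaction). For that interaction 0% of all 27614 genes passed in either fit. Ordered by mean log2 level, GRP3 was first for Bcan, Vcan, Acan and Tnr, PFMP first for Ncan, and NSC first for Tnc and Hapln1. All 10 pairs of populations were read in the fits of all 20 libraries without a batch term and with the replicate block. The only pair to pass for any member was GRP3 and NSC, for Tnr with the block. For GRP3 or PFMP against BNAP/GRP1 or GRP2/MP3, 0% of all 27614 genes passed in either fit. Neighbours in these orders did not pass in those fits, which does not show that they are equal.

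A gene that overlaps the end of Tnr was read as well, chosen after its values were seen. Gm38039 (ENSMUSG00000103719) is annotated as antisense to Tnr, and both of its exons, at chr1:159928390-159928494 and chr1:159931389-159931726, lie in the last untranslated stretch of Tnr (chr1:159924211-159931729). Its level was 23.3, 36.4, 7.08 and 54.99 RPKM in NSC, 119, 67.7, 0 and 38.5 RPKM in BNAP/GRP1, and 43.9, 18.3, 0 and 247 RPKM in GRP2/MP3. In GRP3 it was 1582, 1061, 5.88 and 803 RPKM and in PFMP 579, 1112, 2.51 and 241 RPKM. The RPKM of Gm38039 was thus above that of Tnr in 18 of 20 libraries, with the same populations at the top. RPKM is scaled to gene length, and the exons of Gm38039 cover only a small part of the end of Tnr. Amplification from polyA can favour that end. These RPKM values therefore cannot show whether antisense RNA exceeded Tnr RNA, which was not tested.

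Gm38039 was higher in GRP3 than in NSC by 3.62 ± 1.95 on the log2 scale (adjusted p = 1, and 0.0295 with the replicate block, limma). In the CD140a comparison it was higher by 3.26 ± 1.38 (adjusted p = 0.895, and 0.0377 with the block, limma). Pearson's r of the 2 genes was 0.88 over the 20 libraries, which share batches, and the genes share bases. Whether the counting used the strand is not given in the sources used here, so reads of Tnr and of Gm38039 cannot be told apart. Genes that overlap Vcan (Gm4117 and Gm16318), Tnc (8030451A03Rik) and Hapln1 (Gm8546) each had their highest value in BNAP/GRP1 4, and the highest of these was 28.9 RPKM, for 8030451A03Rik.

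**Figure D4:**
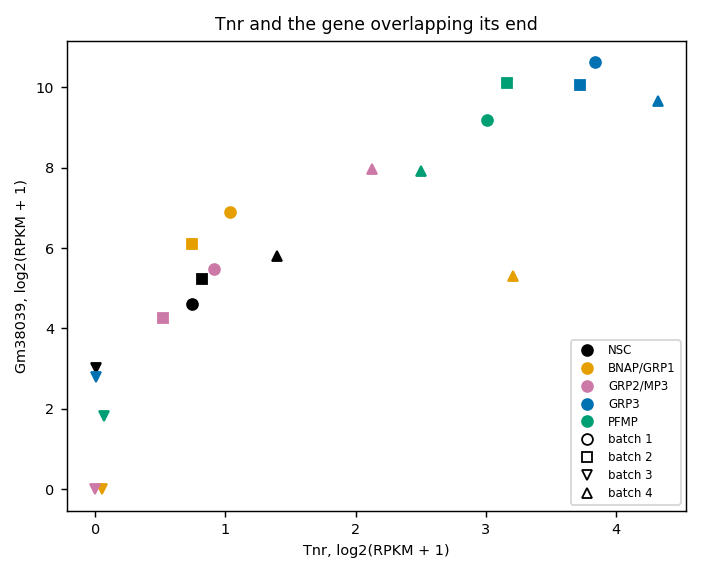
Level of Gm38039 (y axis) against that of Tnr (x axis), both as log2(RPKM + 1), in 20 libraries; colours are populations and symbols batches. The GRP3 and PFMP libraries of batches 1 and 2 are at the upper right, all libraries of batch 3 at the lower left, and BNAP/GRP1 4 lies below the others at its Tnr level.

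The paralogs outside the 8 genes gave a contrast of another kind. Hapln3, the neighbour of Acan, was 28.1, 68.9, 0.712 and 22.2 RPKM in NSC and at most 7.74 RPKM in any progenitor library. Each progenitor was below NSC in 4 of 4 batches. The log2 fold change was lowest in GRP2/MP3 (-3.21 ± 0.95), followed by BNAP/GRP1 (-2.55 ± 0.95), PFMP (-2.40 ± 0.95) and GRP3 (-2.24 ± 0.95). None passed without a batch term (adjusted p = 0.163 to 0.685), and with the replicate block all 4 did (adjusted p = 0.00291, 0.0241, 0.0318 and 0.0496 in this order, limma). The ependymal markers moved with this difference, and their part in it was not tested. Hapln4, the neighbour of Ncan, was at most 1.87 RPKM outside BNAP/GRP1 4, also where Ncan was 4181 RPKM. Tnn and Tnxb were at or below 1.18 RPKM in every library but BNAP/GRP1 4.

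Across the wider matrix, 93 genes in 8 lists were read, of which 83 were tested, and 0 of them passed without a batch term in any of the 7 comparisons. With the replicate block, 5 passed higher and 2 lower in the CD140a comparison, beside 1.44% of all genes (122 higher and 276 lower). The median log2 fold change there was 1.66 over the 4 lecticans, -0.07 over 3 link proteins, 0.57 over 2 tenascins, 0.46 over 20 genes of chondroitin sulfate chain synthesis and 0.71 over 15 other proteoglycans and partners. It was -0.17 over 13 genes of hyaluronan handling, -0.05 over 14 proteases and inhibitors and 0.10 over 12 receptors, and -0.22 over all genes tested. For GRP3 against NSC 3 passed higher and 2 lower with the block, beside 2.6% of all genes (76 higher and 643 lower). The median was 0.33 over the 83 genes and 0.05 over all genes tested.

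Beside Bcan, the genes called higher in the CD140a comparison with the block were Cspg5, Ptprz1, Cntn1 and Timp4. Cspg5 (neuroglycan C) was higher by 2.72 ± 1.26 on the log2 scale (adjusted p = 0.895, and 0.0377 with the block), from a mean of 44.7 RPKM in BNAP/GRP1 and 23.9 RPKM in GRP2/MP3 to 442 RPKM in GRP3 and 332 RPKM in PFMP. Cntn1 (contactin, a binding partner of tenascin-R) was higher by 3.47 ± 1.16 (adjusted p = 0.0377 with the block, limma). Ptprz1, a receptor phosphatase that is itself a chondroitin sulfate proteoglycan and binds both tenascins, was higher by 2.44 ± 1.28 (adjusted p = 0.0415 with the block, limma). Timp4, a metalloproteinase inhibitor, was higher by 2.28 ± 1.02 (adjusted p = 0.0438 with the block, limma).

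The 2 genes called lower were Stab1, a hyaluronan scavenger receptor of macrophages, at -3.45 ± 0.86, and Rtn4rl1, a member of the Nogo receptor family, at -2.16 ± 0.62 (adjusted p = 0.0377 and 0.0415 with the block, limma). Stab1 was between 210 and 246 RPKM in all 5 libraries of batch 3. Against NSC, Cntn1 was called higher with the block in GRP3 (3.94 ± 1.64, adjusted p = 0.0189) and PFMP (3.86 ± 1.64, adjusted p = 0.0213, limma). Dcn (decorin) was called higher in GRP3 (3.62 ± 0.89, adjusted p = 0.0522, and 0.0089 with the block, limma). Dcn is also 1 of 5 fibroblast markers, which summed to 48.5 to 85.0 RPKM in GRP3 and 11.2 to 39.2 RPKM in NSC, with all 5 higher in GRP3, and their part was not tested. Gpc4, a heparan sulfate glypican, was called lower in all 4 progenitors with the block, by -2.37 to -2.98 (adjusted p at most 0.00778, limma), and Ptprf, a receptor phosphatase, in GRP2/MP3 (-2.75 ± 1.22, adjusted p = 0.0404 with the block, limma).

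The members fell into 2 sets by their course over the 20 libraries, which share batches and depth. Pearson's r of log2(RPKM + 1) was 0.725 to 0.894 between any 2 of Bcan, Vcan, Acan and Tnr, and 0.876 between Tnc and Hapln1. Between the sets it was 0.22 to 0.39, and after the mean of each batch was removed -0.220 to -0.556. Ncan was at 0.48 to 0.723 with each of the other 6. After the batch means were removed it was at 0.747 with Bcan, 0.434 with Vcan, 0.292 with Tnr and 0.137 with Acan. It was then at -0.058 with Tnc and -0.014 with Hapln1. For neighbours on the chromosome r was 0.13 for Bcan and Hapln2, 0.25 for Vcan and Hapln1, 0.29 for Acan and Hapln3 and 0.49 for Ncan and Hapln4.

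The genes most like each member among 27613 others were, for Bcan, Cspg5, Rlbp1 and Gpr37l1 (r = 0.98, 0.973 and 0.971) and, for Ncan, B3galt1, Rorb and Syt4 (0.984, 0.976 and 0.975). For Vcan they were B3gat1, Fstl5 and Sapcd2 (0.975, 0.967 and 0.967), and for Acan Lingo3, Slitrk3 and Pou3f1 (0.988, 0.973 and 0.969). Sema5a, Lppr1 and Scn3a were nearest to Tnr (0.98, 0.98 and 0.977). Angpt1, St6galnac5 and Gabrb1 were nearest to Tnc (0.942, 0.915 and 0.909), and Fgfr2, St6galnac5 and Cnksr2 to Hapln1 (0.907, 0.903 and 0.901). St6galnac5, a sialyltransferase, was shared by Tnc and Hapln1.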

How the data were processed

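RNA was amplified from polyA by the MessageAmp II kit and sequenced on a NextSeq500. The authors processed reads with nf-core/rnaseq (FastQC 0.11.9, cutadapt 3.4, STAR 2.6.1, Salmon 1.9.0, GRCm38) and deposited RPKM values; gene lengths, read totals and strand setting are not given in the sources used here. The absolute depth is thus unknown, and no counting interval is given. The table held 26 further columns with no name and no values, which were not used. Amplification from polyA can favour the 3′ ends of transcripts.

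Values were taken as log2(RPKM + 1), which understates changes of low genes. Genes that reached 1 RPKM in 4 or more of the 20 libraries were tested in limma 3.58.1 (R 4.3.3; lmFit, eBayes with a trended prior), with a mean for each population, no batch term, and Benjamini-Hochberg adjustment at 0.05. Groups and batches came from the labels; the study describes them as independent experiments, each litter pooled, and p-values measure the spread between them. The batch that the labels give pairs the libraries, and was used as a replicate block in an alternative. After the mean of each population was removed, the median r was 0.262 to 0.769 within batches (lowest 0.0341) and -0.254 between them. The values left in a population then sum to 0 for each gene. The r between batches is therefore drawn below 0 and adds no evidence to that within them. Others were pseudocount 0.1, no filter, a mean RPKM of at least 5, 2 further scalings, library weights, an untrended prior, a fit of the compared populations only, each batch or library left out and, added after seeing the data, batches 1 and 2 alone. The steps were tested on simulated data. Named genes were the 8 members, their paralogs, listed matrix genes past the threshold in either fit, and the 3 genes most like each member. The members and lists (matrix genes and cell type markers) were chosen with earlier results of these data known.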

Additional observations from a re-analysis of the deposited data

Results flagged for a closer look

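In a group of 4 libraries, the gap of a library to the next, in RPKM, was taken as a share of the range of the group. The library stood apart when this share passed Dixon's critical value. Chance passes that value in about 1 in 20 groups only where values are independent and normal. RPKM values are skewed and the groups share the 4 batches, so the count below cannot be set against that rate. The gaps were not read on the log2 scale. Of 40 groups (8 genes in 5 populations) 14 had such a library, and 13 of these were of batch 4. Ncan stood apart in all 5 populations, with 4181 RPKM in NSC 4, 159 RPKM in BNAP/GRP1 4, 2540.3 RPKM in GRP2/MP3 4, 1697 RPKM in GRP3 4 and 3331 RPKM in PFMP 4. Acan did so with 1.26 RPKM in NSC 4, 6.92 RPKM in BNAP/GRP1 4 and 0.832 RPKM in GRP2/MP3 4, and Tnr with 8.25 RPKM in BNAP/GRP1 4. Hapln2 did so with 1.26 RPKM in NSC 4, 6.95 RPKM in BNAP/GRP1 4, 0.646 RPKM in GRP2/MP3 4, 1.25 RPKM in GRP3 4 and 0.248 RPKM in PFMP 1. These batch 4 values of Acan, Tnr and Hapln2 were at or below the median of all genes of their library, and those of Ncan were above it.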

How the results depend on the processing

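Most results kept their direction and their side of the threshold. Of the refitted log2 fold changes 752 did so, 59 turned their sign and 30 passed the threshold where they had not. Values are log2 fold changes unless said otherwise, and the cause of a change was not tested. The batch as a replicate block passed 1 member in GRP3 against NSC (Tnr, 2.23) and 1 in the CD140a comparison (Bcan, 2.39), and changed no other call of a member. With batch 3 also left out, 1 passed in GRP3 (Tnr 2.98; 2.43% of all genes) and 3 in the CD140a comparison (Bcan 2.97, Vcan 2.35, Tnr 2.00; 2.8%). Library weights passed 5 in GRP3 (Bcan 3.99, Vcan 3.39, Acan 2.01, Tnr 2.97, Hapln1 -1.38; 17.7% of all genes) and 4 in the CD140a comparison (Bcan 3.55, Vcan 2.42, Acan 1.69, Tnr 2.26; 9.06%). Batches 1 and 2 alone, chosen after seeing the data, passed 4 in GRP3 (Bcan 3.85, Vcan 3.60, Acan 2.14, Tnr 3.00), 3 in PFMP (Bcan 3.57, Acan 2.23, Tnr 2.31) and 5 in the CD140a comparison (Bcan 3.68, Ncan 2.12, Vcan 3.21, Acan 2.19, Tnr 2.63).

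The sign turned mainly for differences near 0. In BNAP/GRP1 against NSC, Bcan was -0.03 with a pseudocount of 0.1 and -0.06 under both median-of-ratios scaling and quantile normalization, Vcan -0.02 and Acan -0.01 under quantile normalization, and Acan -0.06 with library weights. In batches 1 and 2 alone Ncan was 0.38, Acan -0.02 and Tnc 0.10 there. In GRP2/MP3 against NSC, Vcan was 0.13, Acan 0.01 and Tnr -0.06, both with library weights and in batches 1 and 2 alone. For GRP3, Ncan was 0.27 with the block and without batch 3, 0.90 with weights and 1.06 in batches 1 and 2. In the CD140a comparison Tnc was 0.01 and Hapln1 0.03 under quantile normalization, and Hapln1 0.07 with weights. Quantile normalization moved the median of all genes from -0.22 to -0.01 there, and from 0.38 to 0.09 for BNAP/GRP1 against NSC.

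Leaving out 1 batch or library at a time passed 0 to 1 members in GRP3 and 0 to 2 in the CD140a comparison, and only the batch 3 fits passed any. In GRP3 against NSC, Tnr then ranged from 1.78 to 3.22, Ncan from -1.97 to 2.13, Bcan from 1.20 to 3.65 and Vcan from 1.25 to 2.91, and in PFMP Ncan from -1.44 to 2.77 and Bcan from 0.91 to 3.33. In the CD140a comparison Bcan ranged from 1.91 to 3.16, Vcan from 1.21 to 2.35 and Hapln1 from -0.55 to 0.04. In BNAP/GRP1, Bcan ranged from -0.83 to 0.96, Ncan from -2.50 to 1.01, Vcan from -0.13 to 0.82, Acan from -0.29 to 0.72, Tnr from -0.13 to 0.92, Tnc from -0.75 to 0.41 and Hapln1 from -0.85 to 0.13. In GRP2/MP3, Bcan ranged from -1.68 to 0.07, Ncan from -3.97 to 0.77, Vcan from -0.76 to 0.27, Acan from -0.27 to 0.21 and Tnr from -0.26 to 0.45. A mean RPKM of at least 5 removed the members with lower means, so these had no value there. The read totals are unknown, and low values such as those of Acan and Hapln2 cannot be given a counting error.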

Other observations

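The other marker lists gave the following summed levels over all 20 libraries, as measured values beside those in the report. The 6 NSC markers summed to between 267 and 4896 RPKM in NSC libraries, and the highest sums were 15098 RPKM for GRP3 and 12930.4 RPKM for PFMP. GRP3 nevertheless had only 2 of these 6 markers above NSC, with a median log2 fold change of -0.88 over the list. PFMP likewise had 2 of 6 above NSC, with a median of -0.87. These high sums therefore do not show that the list as a whole was higher than in NSC. Myelinating oligodendrocyte markers reached 1072 RPKM in 1 PFMP library, but their median was 103.5 RPKM in NSC and 87.1 RPKM in PFMP, and 6 neuron markers did not exceed 138 RPKM in any library. Neuroblast markers were between 34.3 and 583 RPKM, endothelial markers between 4.53 and 214 RPKM, and smooth muscle markers between 0.682 and 42.2 RPKM.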
